A study of Brassica oleracea var. italica with 18 samples.

Results

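Receptor kinases of 4 Arabidopsis loci were followed through the shoot meristem of 2 broccoli lines at 3 temperatures, on 6 array probes out of 43603. The probes were taken by name: A_46_P227114 and A_46_P274573 for ERECTA (AT2G26330), A_46_P101799 and A_46_P200574 for IMK2 (AT3G51740), A_46_P311750 for a leucine-rich repeat receptor-like kinase with no other name (LRR-RLK, AT5G63930), and A_46_P380078 for PSKR2 (AT5G53890). The array carries Brassica napus probes, and the names are those of the Arabidopsis locus that the study's gene tables give each probe. Which broccoli gene copy a probe reads, and where that copy lies in the genome, was not analysed here, and no probe sequence is shown. Of the pair of probes for one locus, the one named first above is called the first probe and the other the second. The heat-tolerant line (HT, the inbred B295) and the heat-sensitive line (HS, BR1 op) were compared after growth at 22 °C and transfer to 15, 22 or 27 °C under long days, with 3 arrays in each of 6 groups and 18 arrays in all. A group is written as its line and temperature, so HT22 is the heat-tolerant line at 22 °C, and array values are given in the order of replicates 1, 2 and 3. Each line is a single genotype, so a difference between HT and HS is a difference between these lines and not between heat tolerance and heat sensitivity in general. The transfer lasted 2 weeks by the labels and a shorter time by the methods, and whether an array holds one plant or a pool is not settled, so p-values measure the spread between these arrays.

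Leucine-rich repeat receptor kinases sit in the plasma membrane, bind a ligand, often a small secreted peptide, with the repeats outside the cell, and pass the signal on through a kinase domain inside. In Arabidopsis, ERECTA and its relatives ERL1 and ERL2 shape the inflorescence, organ size and stomatal spacing, and perceive peptides of the EPF family such as EPF2. PSKR2 is a receptor of phytosulfokine, a short sulfated peptide that promotes cell growth. IMK2 belongs to the inflorescence meristem receptor-like kinases, and the LRR-RLK of AT5G63930 is known only by its domains.

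The study assigned the first ERECTA probe, the first IMK2 probe and the LRR-RLK probe to its brown co-expression module, which went up with temperature, the second IMK2 probe to the pink module and PSKR2 to the magenta module, which both went down. It listed the second ERECTA probe among those higher in HT. The modules and that list were made from these same arrays, so the directions below are not independent evidence of them. All 6 probes were marked well above background on all 18 arrays and none was saturated; 63.9% to 69.8% of all probes were well above background per array. The arrays of 22 and 27 °C shared 3 slides, each holding both lines, while the arrays of 15 °C lay on 2 slides of their own. Differences between HT and HS and between 27 and 22 °C can therefore be read within a slide, but a difference between 15 °C and a warmer temperature cannot be told apart from a difference between slides. A random block for slide, used below for such differences, does not separate temperature from slide. Slide pairs of HT and HS were matched by replicate number. That choice is arbitrary on the slide that held 2 arrays of each line at 15 °C. The 9 slide pairs lay on 5 slides, so they are not independent of each other. Of 4 probes for meristem and boundary genes, PDF2, LFY, CUC1 and ULT1, all were well above background on every array, and so were both probes for the leaf light-harvesting genes LHCA3 and LHCB2.4.

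PSKR2 and 1 of the 2 ERECTA probes had more signal in HT. Averaged over the 3 temperatures, the second ERECTA probe was 1.8-fold and PSKR2 1.35-fold higher in HT than in HS, the LRR-RLK probe was 1.24-fold lower and the first IMK2 probe 1.1-fold lower. The first ERECTA probe and the second IMK2 probe did not pass the test. Thus 2 of the 6 probes were higher and 2 lower, where 20.9% of all probes tested were higher and 15.1% lower in HT (36% in either direction) in limma's moderated test with Benjamini-Hochberg adjusted p below 0.05. By temperature, 1 of the 6 was called at 15 °C, 3 at 22 °C and 2 at 27 °C, where 21.2%, 20.3% and 19.7% of all probes were. Under the 75th percentile shift the second ERECTA (0.7, adjusted p = 0.037) and first IMK2 (−0.32, adjusted p = 0.0323) probes were called at 15 °C as well, making 3, and the first IMK2 probe also at 22 °C (−0.31, adjusted p = 0.0386, against −0.16 here). No direction held for all 6. The study built its modules from probes already filtered on these arrays by fold change between HT and HS and adjusted p. It also listed the second ERECTA probe as higher in HT. The line calls of the 6 are not independent of these choices, while the shares over all probes carry no such filter.

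From 15 to 27 °C, with both lines averaged, the first ERECTA, first IMK2 and LRR-RLK probes rose and the second IMK2 and PSKR2 probes fell. So 3 of the 6 probes rose and 2 fell, where 13.6% of all probes rose and 14.7% fell (28.3% in either direction); all of these came from modules chosen for following temperature. Within HT alone 4 of the 6 were called and within HS 2, where 18.1% and 16% of all probes were. From 15 to 22 °C, 1 of the 6 was called in HT and 2 in HS, where 10.2% and 6.25% of all probes were. With slide as a random block the HT call, PSKR2 (−0.34, adjusted p = 0.0516), and 1 of the HS calls, LRR-RLK (0.54, adjusted p = 0.0534), were lost. The division of all calls depends on scaling, with 48.2% of calls upward here and 62% when each array was shifted by its 75th percentile instead. Between 27 and 22 °C none of the 6 probes passed, where 7.14% of all probes did in the limma fit, although the second IMK2 probe had an unadjusted p of 0.0456. The same holds within HT and within HS, where 1.9% and 2.21% of all probes passed and LRR-RLK in HT had an unadjusted p of 0.0394. Neither test of whether a temperature difference itself differed between the lines, 22 against 15 °C or 27 against 15 °C, called any of the 6 (smallest unadjusted p = 0.0987, for the first ERECTA probe in limma), where 0.0344% and 0.378% of all probes were called.

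**Figure D1:**
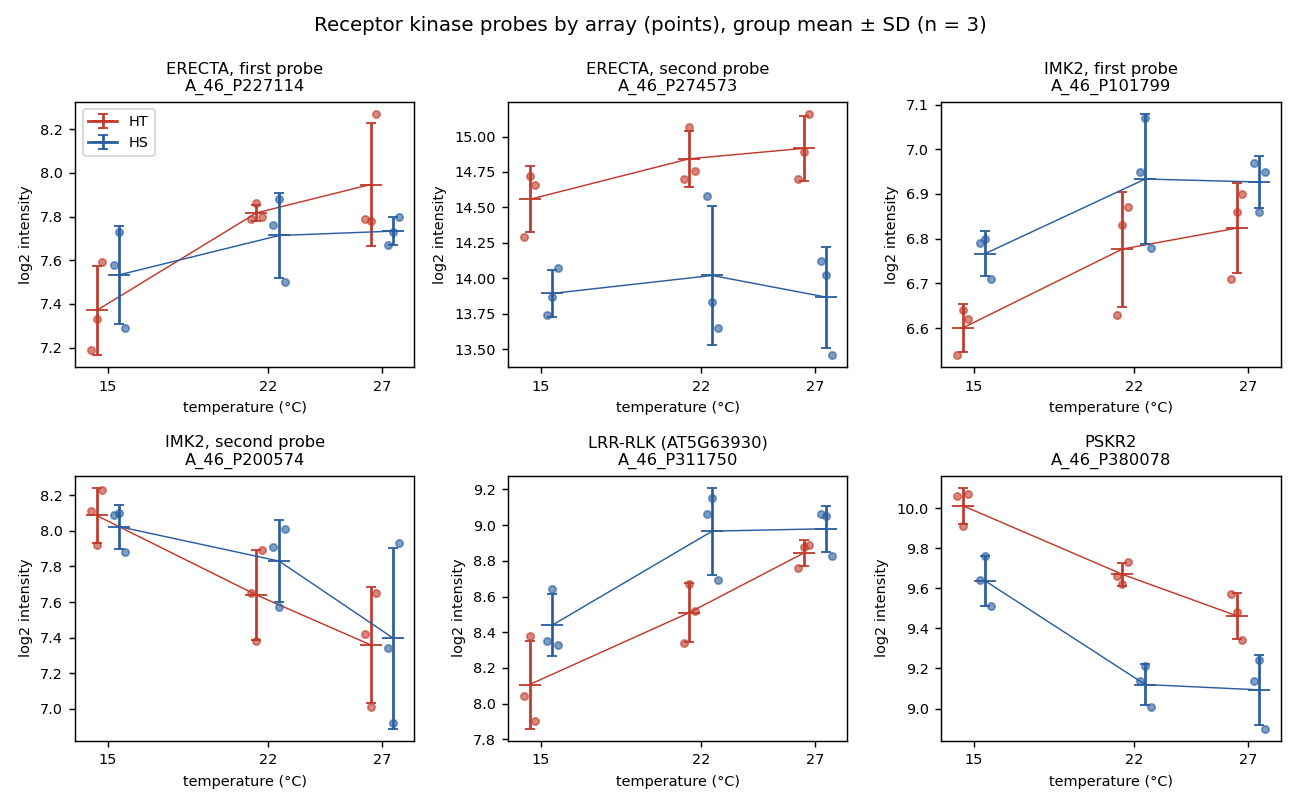
Quantile-normalized log2 intensity (vertical axis, own scale for each probe) against temperature (°C) for the 6 receptor kinase probes in HT (red) and HS (blue); points are arrays and bars the group mean ± SD (n = 3), joined by lines. The second ERECTA probe and PSKR2 lie higher in HT than in HS at each temperature, and PSKR2 and the second IMK2 probe lie lower at 27 °C than at 15 °C in both lines.

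The second ERECTA probe, A_46_P274573, gave log2 values of 14.29, 14.72 and 14.66 in HT and 13.74, 13.87 and 14.07 in HS at 15 °C. At 22 °C the values were 14.70, 15.07 and 14.76 in HT and 14.58, 13.83 and 13.65 in HS. At 27 °C they were 14.70, 14.89 and 15.16 in HT and 14.12, 14.02 and 13.46 in HS. Every HT array lay above every HS array at each temperature, a separation seen in 35.1%, 33.6% and 35.7% of all probes at 15, 22 and 27 °C; the closest arrays were 14.58 in HS and 14.70 in HT at 22 °C. The difference averaged over temperatures was 0.85 on the log2 scale (SE 0.14, 95% interval 0.55 to 1.14, limma adjusted p = 0.000183). HT was higher in 9 of 9 pairs of arrays of one slide, temperature and replicate number, by 0.85 ± 0.46 (SD, n = 9 pairs). By temperature the line difference was 0.66, 0.83 and 1.05 at 15, 22 and 27 °C, with limma adjusted p of 0.0633, 0.0226 and 0.00517. The increase from 15 to 27 °C of 0.39 in that difference was within its error (SE 0.33, limma adjusted p = 0.935). With slide as a block the averaged difference had an adjusted p of 0.000533. The call at 22 °C was lost without HT22 replicate 2 (0.71, adjusted p = 0.0861), HS22 replicate 2 (0.73, 0.0857) or HS22 replicate 3 (0.64, 0.0956). Temperature made no difference that passed: the 27 °C arrays were above those of 15 °C by 0.17 with both lines averaged (95% interval −0.19 to 0.53, adjusted p = 0.513).

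The first ERECTA probe, A_46_P227114, passed for 27 against 15 °C and not for the lines. In HT it gave 7.19, 7.33 and 7.59 at 15 °C, 7.79, 7.86 and 7.80 at 22 °C, and 7.79, 7.78 and 8.27 at 27 °C. In HS it gave 7.58, 7.73 and 7.29 at 15 °C, 7.76, 7.88 and 7.50 at 22 °C, and 7.67, 7.73 and 7.80 at 27 °C. In HT all arrays of 22 °C and of 27 °C stood above all arrays of 15 °C, as did those of 29.9% and 36.3% of all probes in either direction, while in HS the groups overlapped. The rise from 15 to 27 °C was 0.39 with both lines averaged (SE 0.11, 95% interval 0.16 to 0.62, limma adjusted p = 0.0134), but with slide as a random block the adjusted p was 0.0517. The averaged difference between lines was 0.05 (95% interval −0.14 to 0.24, adjusted p = 0.691) and turned to −0.07 under the 75th percentile shift, so it has no settled direction. In HT alone the rise from 15 to 27 °C was 0.58 (limma adjusted p = 0.016), and that call was lost without HT15 replicate 1 (0.49, adjusted p = 0.0748) or HT27 replicate 3 (0.42, adjusted p = 0.0714) and when only the arrays compared were fitted (adjusted p = 0.0988).

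Both ERECTA probes thus carry one Arabidopsis name with different patterns, and this was tested directly on the difference between them within each array, which removes any scaling common to the array. Only changes of that difference between groups are read, since levels of different probes are not comparable. The second probe exceeded the first by 0.80 more in HT than in HS on the log2 scale. Centred on the mean of all 18 arrays, the difference ran from 0.23 to 0.72 in HT and from −1 to 0.16 in HS, so the lines did not overlap at any temperature or over all arrays. The exact permutation test, two-sided with labels permuted within temperature, gave p = 0.00025, the smallest its 8000 relabelings allow, and 0.00125 after adjustment over the 5 comparisons of this kind; the second probe was in the list of probes higher in HT. The same difference changed by −0.22 from 15 to 27 °C (exact permutation test within line, p = 0.205, adjusted 0.256), so a different response of the probes to temperature was not shown.

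The IMK2 probes also diverged, between 15 and 27 °C and not between lines. The second probe, A_46_P200574, gave 8.11, 7.92 and 8.23 in HT and 8.09, 8.10 and 7.88 in HS at 15 °C. It gave 7.65, 7.38 and 7.89 in HT and 7.91, 7.57 and 8.01 in HS at 22 °C. At 27 °C the values were 7.42, 7.01 and 7.65 in HT and 7.34, 6.92 and 7.93 in HS, so the 27 °C groups were the most spread, and the replicates of slide 2 were the lowest in both lines. In HT all 3 arrays at 27 °C lay below all 3 at 15 °C, a separation that 36.3% of all probes had in either direction. In HS the third array at 27 °C, 7.93, lay above the lowest array at 15 °C. The fall from 15 to 27 °C was 0.68 with both lines averaged (1.6-fold, SE 0.16, limma adjusted p = 0.00642), with −0.73 in HT and −0.63 in HS (limma adjusted p of 0.0433 and 0.0862). The HT call was lost without any one of HT15 replicates 1, 2 or 3 (−0.71, −0.81 and −0.65) or HT27 replicates 1 or 2 (−0.76 and −0.55), with adjusted p up to 0.17. HS27 replicate 3 bore on the HS value, which was −0.89 without it (adjusted p = 0.0134).

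Part of this fall could be read within slides. On each slide that held both temperatures the second IMK2 probe was lower at 27 than at 22 °C, in 6 of 6 pairs of arrays, by 0.36 ± 0.22 (SD, n = 6 pairs): −0.28 ± 0.08 in HT and −0.44 ± 0.31 in HS (n = 3 each). The fit without slides gave this difference of −0.36 an adjusted p of 0.242, and with slide as a block the adjusted p was 0.0188 in limma. Of 19 alternatives only the slide block called it. The limma adjusted p was 0.07 with the replicate block, 0.145 with the scan day block and 0.0546 to 0.447 when 1 array was left out. The lines did not separate, with an averaged difference of −0.05 (95% interval −0.34 to 0.23, adjusted p = 0.79).

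The first IMK2 probe, A_46_P101799, stayed in a narrow range. In HT it gave 6.54, 6.64 and 6.62 at 15 °C, 6.63, 6.83 and 6.87 at 22 °C, and 6.71, 6.86 and 6.90 at 27 °C. In HS it gave 6.79, 6.80 and 6.71 at 15 °C, 6.95, 7.07 and 6.78 at 22 °C, and 6.97, 6.86 and 6.95 at 27 °C. The 27 °C arrays lay above the 15 °C arrays in both lines. Over all probes such separation in either direction held for 36.3% in HT and 29.6% in HS. HT lay below HS without overlap at 15 °C, where 35.1% of all probes separated the lines. The rise from 15 to 27 °C was 0.19 (SE 0.06, limma adjusted p = 0.0258), and HT was lower by 0.14 (SE 0.05, limma adjusted p = 0.0326). Of 9 slide pairs HT was lower in 7, level at 6.86 in 1 and higher in 1. Both calls were fragile. With slide as a random block the rise had an adjusted p of 0.0712, and it was lost without HT15 replicate 1, HT27 replicate 2, HT27 replicate 3, HS15 replicate 3 or HS27 replicate 1 (0.17 to 0.18). The line difference was −0.3 under the 75th percentile shift and −0.07 with normexp background correction (adjusted p = 0.148), and was lost without any one of HT15 replicate 1, HT22 replicate 1, HT27 replicate 1, HS15 replicates 1 or 2, HS22 replicates 1 or 2, or HS27 replicates 1 or 3 (−0.14 to −0.12, adjusted p up to 0.068).

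Within arrays, the second IMK2 probe lost 0.87 against the first between 15 and 27 °C on the log2 scale. The centred difference ran from 0.25 to 0.69 at 15 °C and from −0.86 to 0.06 at 27 °C, with no overlap between the temperatures in either line. The exact permutation test within line gave p = 0.005, the smallest its 400 relabelings allow, and 0.0125 adjusted over the 5 comparisons. Arrays of 15 and 27 °C shared no slide, so this change cannot be told apart from a slide difference that acts unequally on the probes. Arrays of 22 and 27 °C did share slides. The change from 22 to 27 °C was −0.38 (exact p = 0.1, adjusted 0.167), and that between HT and HS was 0.09 (exact permutation p = 0.526, adjusted 0.526). The pink and brown modules that hold these probes were chosen for opposite courses over temperature.

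**Figure D2:**
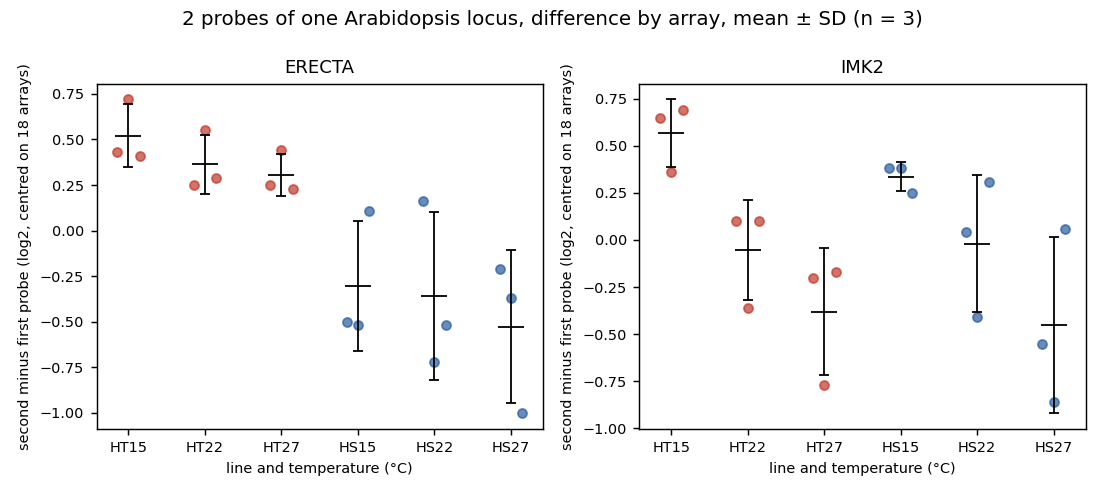
Difference of the second minus the first probe for ERECTA (left) and IMK2 (right) on each array, log2, centred on the mean of the 18 arrays, by line and temperature (°C); points are arrays (HT red, HS blue) and bars the mean ± SD (n = 3). For ERECTA all HT arrays, 0.23 to 0.72, lie above all HS arrays, and for IMK2 all 15 °C arrays, 0.25 to 0.69, lie above all 27 °C arrays.

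The LRR-RLK probe, A_46_P311750, was higher at 27 than at 15 °C in both lines and, averaged over temperatures, lower in HT. In HT it gave 8.04, 8.38 and 7.90 at 15 °C, 8.34, 8.67 and 8.52 at 22 °C, and 8.76, 8.88 and 8.89 at 27 °C. In HS it gave 8.35, 8.64 and 8.33 at 15 °C, 9.06, 9.15 and 8.69 at 22 °C, and 9.06, 9.05 and 8.83 at 27 °C. In HS the arrays of 22 °C already stood above all those of 15 °C, as in 21% of all probes, and those of 27 °C were level with them. In HT the order of the groups followed the temperature, and the arrays of 27 °C did not overlap those of 22 °C, as in 19.2% of all probes. The rise from 15 to 27 °C was 0.64 with both lines averaged (1.56-fold, SE 0.10, 95% interval 0.42 to 0.86, limma adjusted p = 0.000373), 0.74 in HT and 0.54 in HS, and these did not differ by more than their error (0.20, SE 0.20, limma adjusted p = 0.951). With slide as a random block the averaged rise had an adjusted p of 0.00134, but that block does not separate temperature from slide. On shared slides 27 minus 22 °C was 0.33 ± 0.11 in HT and 0.01 ± 0.12 in HS (SD, n = 3 pairs each). From 15 to 22 °C in HS the rise was 0.53 (adjusted p = 0.0469), a call lost in 10 of 16 alternatives, among them the 75th percentile shift (adjusted p = 0.0509) and the fits without HS15 replicate 1 or 3 or HS22 replicate 1 or 2 (0.44 to 0.48, adjusted p up to 0.168). The HS rise to 27 °C was lost without HS15 replicate 1 or 3 (0.49 each) or HS27 replicate 1 or 2 (0.50 and 0.51), with adjusted p up to 0.0789.

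HT was below HS by 0.31 for this probe (SE 0.08, 95% interval −0.49 to −0.13, limma adjusted p = 0.00989; with slide as a block 0.00637), in 8 of 9 slide pairs. The value was −0.33, −0.45 and −0.13 at 15, 22 and 27 °C, with limma adjusted p of 0.137, 0.0397 and 0.637. The call at 22 °C was lost without HT22 replicate 1 or 3 (−0.37 and −0.46) or HS22 replicate 1 or 2 (−0.41 and −0.36), with adjusted p up to 0.152.

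PSKR2, A_46_P380078, separated the lines, and 15 °C from both warmer temperatures. In HT it gave 10.06, 9.91 and 10.07 at 15 °C, 9.66, 9.62 and 9.73 at 22 °C, and 9.57, 9.48 and 9.34 at 27 °C. In HS it gave 9.64, 9.76 and 9.51 at 15 °C, 9.14, 9.21 and 9.01 at 22 °C, and 9.14, 9.24 and 8.90 at 27 °C. HT lay above HS with no overlap at each temperature, and within each line both warmer groups lay below all arrays of 15 °C. Such separation was common: over all probes it held for 33.6% to 35.7% between the lines, for 29.9% and 36.3% at 22 and 27 °C against 15 °C in HT, and for 21% and 29.6% in HS. The difference between lines was 0.43 (1.35-fold, SE 0.06, 95% interval 0.31 to 0.55, limma adjusted p = 2.49e-05), and HT was higher in 9 of 9 slide pairs, by 0.43 ± 0.16 (SD, n = 9 pairs). It was 0.38 at 15 °C, 0.55 at 22 °C and 0.37 at 27 °C, called at each temperature in the fit to all arrays. Fitting only the arrays compared lost the call at 27 °C (adjusted p = 0.108), and the methods' t-test after Benjamini-Hochberg adjustment lost those at 15 °C and 27 °C (0.0749 and 0.161). The call at 15 °C was lost without HS15 replicate 3 (0.31, adjusted p = 0.0576), and that at 27 °C without HT27 replicate 1 (0.32, 0.0642) or HS27 replicate 3 (0.28, 0.0609). The fall from 15 to 27 °C was 0.55 (1.46-fold, SE 0.07, 95% interval −0.69 to −0.40, limma adjusted p = 4.96e-05; 0.00028 with slide as a random block), −0.55 in each line. Most of it lay between 15 and 22 °C, −0.35 in HT and −0.52 in HS. Arrays of 15 and 22 °C shared no slide, so this step cannot be told apart from a difference between slides. From 22 to 27 °C the averaged change was −0.12 (adjusted p = 0.401), with HT at 27 °C below HT at 22 °C on all arrays. In HT 19.2% of all probes separated these temperatures. In HS the arrays of 22 and 27 °C overlapped for all 6 probes, where 17% of all probes had no overlap. The HT value of −0.35 had an adjusted p of 0.0371 and was lost without HT15 replicate 1 or 3 or any one HT22 array (−0.38 to −0.32, adjusted p up to 0.116).

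**Figure D3:**
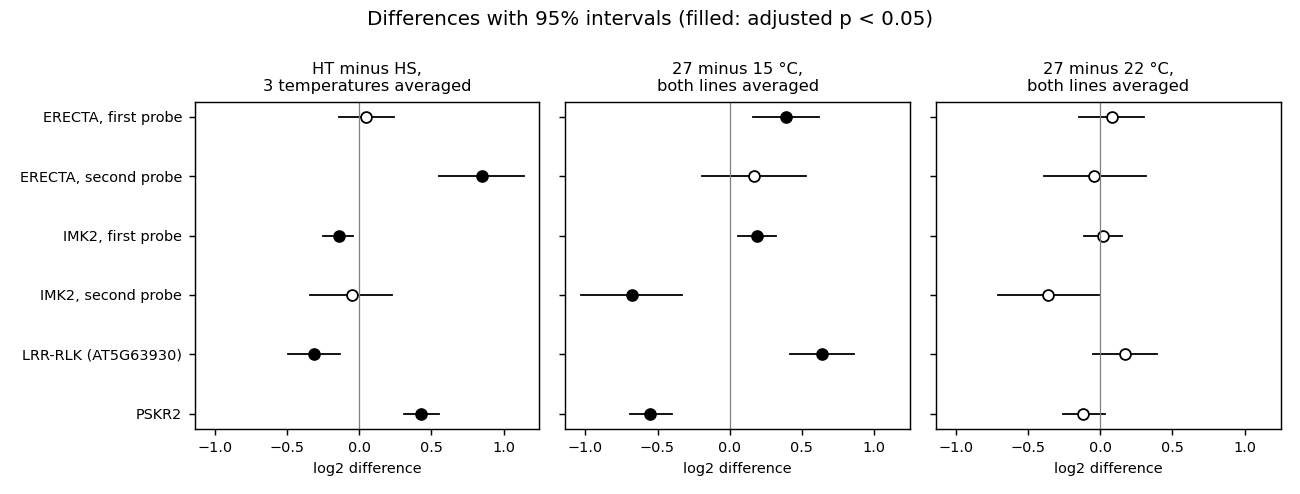
Log2 differences of the 6 probes (points) with 95% intervals from the limma fit, for HT minus HS averaged over temperatures, 27 minus 15 °C and 27 minus 22 °C averaged over lines; filled points have an adjusted p below 0.05. The second ERECTA probe (0.85) and PSKR2 (0.43) lie to the right for the lines, LRR-RLK (0.64) to the right and the second IMK2 probe (−0.68) and PSKR2 (−0.55) to the left for 27 against 15 °C, and none is filled for 27 against 22 °C.

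Seen by level, neighbours in the order of groups mostly overlapped. For PSKR2 the groups ran from HS27 and HS22 through HT27, HS15 and HT22 to HT15, with gaps free of overlap between HS22 and HT27 (0.34) and between HT22 and HT15 (0.35). For LRR-RLK the order was HT15, HS15, HT22, HT27, HS22 and HS27, with the gap between HT22 and HT27 (0.33) free of overlap. For the first IMK2 probe the gap between HT15 and HS15 (0.17) was, and for the first ERECTA and second IMK2 probes no neighbours were separate. Over all probes 29.9% separated HT15 from HT22, 19.2% HT22 from HT27 and 35.1% HT15 from HS15. The share for HS22 against HT27 was not counted. For the second ERECTA probe the 3 HS groups, within 0.15 of each other, came first and then HT15, 0.54 above HS22, HT22 and HT27; HS22 overlapped HT15 through its replicate 1.

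The markers moved too. PDF2, an epidermal homeobox gene of the meristem, was lower in HT by 0.40 (SE 0.07, limma adjusted p = 0.000237) and higher at 27 than at 15 °C by 0.50 (adjusted p = 0.000451). ULT1, a regulator of meristem size, was lower at 27 °C by 0.80 (adjusted p = 2.6e-05) and LHCA3, a light-harvesting gene of green tissue, by 0.52 (adjusted p = 0.0405), while CUC1, a boundary gene (difference 1.00, adjusted p = 0.0508), and LFY, a floral identity gene (0.27, adjusted p = 0.559), did not pass. CUC1 passed under the 75th percentile shift (1.05, adjusted p = 0.0313). LHCB2.4, the other leaf probe, did not pass for 27 against 15 °C. Of the 4 meristem and boundary probes 1 was called lower between the lines, and of the 2 leaf probes none was called. Over all probes 15.1% were called lower in HT and 36% in either direction. The group means of these markers ranged from 8.99 to 9.90 for PDF2, 10.32 to 11.34 for ULT1, 6.26 to 7.94 for CUC1, 8.11 to 8.69 for LFY, 11.91 to 12.69 for LHCA3 and 12.39 to 13.18 for LHCB2.4. In whole meristems fewer cells of a type and less RNA per cell cannot be told apart, and the part of tissue makeup in the differences of the 6 probes was not tested.

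Around ERECTA, its relative ERL2 and the peptide EPF2 were measured as well. ERL2 (A_46_P072216), a receptor of the same family, was lower in HT by 0.50 (SE 0.06, limma adjusted p = 8.51e-06), opposite in sign to the second ERECTA probe. In HT its lowest and highest values were 10.88 and 11.32 at 15 °C, 10.66 and 10.76 at 22 °C, and 10.62 and 10.79 at 27 °C, and in HS they were 11.67 and 11.79, 11.12 and 11.35, and 10.95 and 11.02. HT thus lay below HS at every temperature, where 35.1%, 33.6% and 35.7% of all probes separated the lines at 15, 22 and 27 °C. ERL2 fell by 0.56 from 15 to 27 °C (SE 0.07, adjusted p = 5.28e-05), while the first ERECTA probe rose by 0.39. EPF2 (A_46_P332995), a secreted peptide of the stomatal lineage that acts through these receptors in Arabidopsis, was lower in HT by 0.64 (SE 0.12, limma adjusted p = 0.000529) and rose by 0.74 from 15 to 27 °C (SE 0.14, adjusted p = 0.00133). Its group means rose from 9.07 ± 0.09 to 10.05 ± 0.04 (SD, n = 3) in HT and from 9.95 ± 0.43 to 10.47 ± 0.37 in HS.

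Of the enzymes that process the PSKR2 ligand, TPST rose and SBT1.1 fell from 15 to 27 °C. TPST (A_46_P376205), which adds sulfate to tyrosines of the phytosulfokine precursor, rose by 0.80 from 15 to 27 °C (1.74-fold, SE 0.09, limma adjusted p = 1.48e-05), with group means going from 7.19 ± 0.10 to 7.96 ± 0.08 in HT and from 7.46 ± 0.09 to 8.28 ± 0.26 in HS (SD, n = 3). SBT1.1, a subtilase that cuts a phytosulfokine precursor in Arabidopsis, fell by 1.15 and 1.11 on its probes A_46_P102159 and A_46_P312310 (adjusted p = 2.51e-05 and 7.78e-06). These were falls of 2.22-fold and 2.16-fold, but with normexp background correction the first was −0.61 and its difference between lines 0.25. Like PSKR2, SBT1.1 was higher in HT, by 0.54 and 0.30 (adjusted p = 0.00108 and 0.0166), and TPST was lower in HT by 0.24 (adjusted p = 0.0155). Between 27 and 22 °C none of these 4 ligand and processing probes passed in limma, where 7.14% of all probes did. SBT1.1 probe A_46_P312310 came nearest (−0.37, unadjusted p = 0.00472, adjusted p = 0.0593), and it passed with normexp background correction (−0.36, adjusted p = 0.0445).

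**Figure D4:**
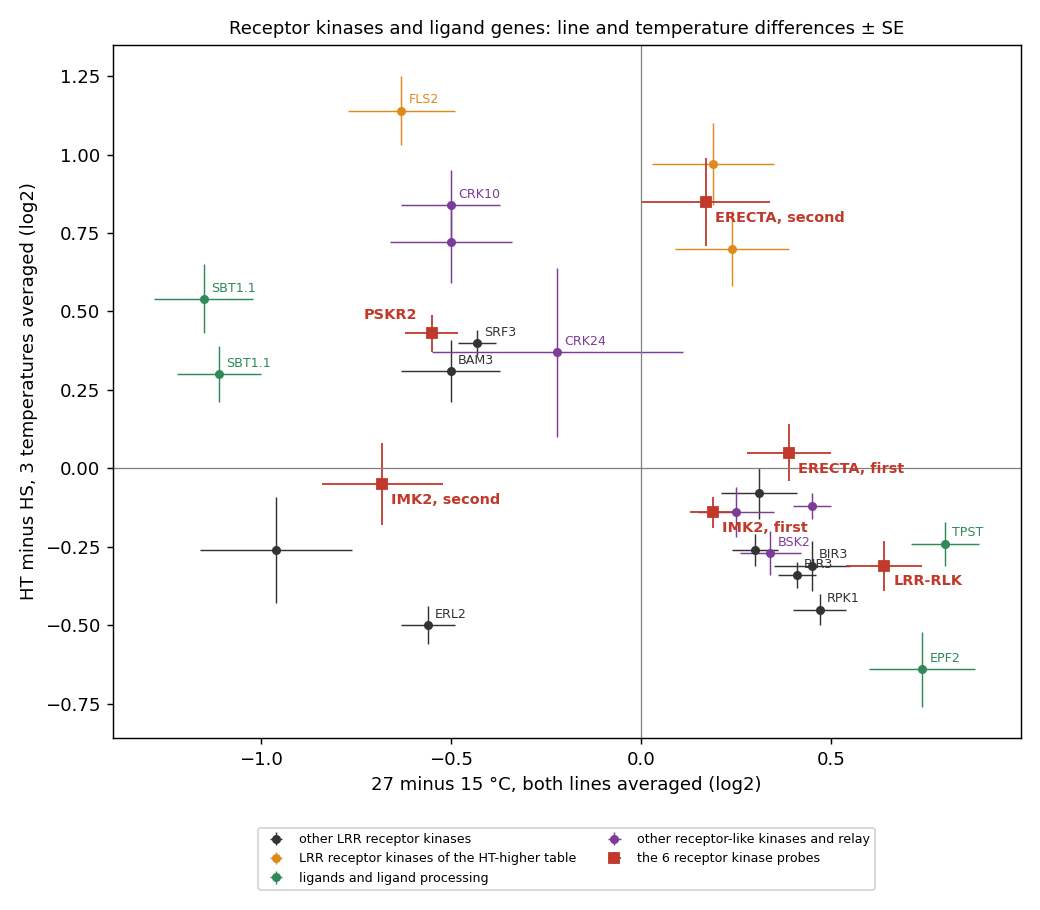
HT minus HS averaged over temperatures (vertical, log2) against 27 minus 15 °C averaged over lines (horizontal, log2), ± SE, for the 6 receptor kinase probes (red squares) and the probes of related receptors, ligands and relay genes (circles, coloured by list); probes for AT2G37050 and AT4G04960, which had no signal above background in most HS arrays, are left out. PSKR2 and SBT1.1 lie at upper left, LRR-RLK, TPST and EPF2 at lower right, and ERL2 at lower left.

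Other receptors were counted from lists taken by gene description from the study's tables. Of 9 other leucine-rich repeat receptor kinase probes in the temperature modules, 5 rose and 4 fell from 15 to 27 °C (median 0.30, against 0.004 over all probes), and 2 were higher and 5 lower in HT (median −0.26, against 0.046). Over all probes 13.6% rose and 14.7% fell, and 20.9% were higher and 15.1% lower in HT. The temperature modules were chosen on these arrays, from probes that the study had first filtered by fold change between HT and HS and adjusted p. The counts for temperature and for the lines are therefore not independent of that choice. The rise of 1 of the 5, AT2G36570 (A_46_P311095, 0.31), was lost under the 75th percentile shift (0.23, adjusted p = 0.0545). RPK1, a receptor-like kinase of abscisic acid responses, rose by 0.47 (adjusted p = 0.000133), and the AT1G56130 probe A_46_P108439 fell by 0.96 (adjusted p = 0.00283; its HT15 arrays spread by an SD of 0.72), the largest changes up and down in this list. SRF3, of the STRUBBELIG receptor family, was higher in HT by 0.40 (adjusted p = 1.59e-06) and ERL2 was the lowest in HT. BAM3, of the meristem receptors related to CLAVATA1, was higher in HT by 0.31 (adjusted p = 0.0315) but by 0.16 under the 75th percentile shift (adjusted p = 0.373).

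Like the second ERECTA probe, 4 leucine-rich repeat receptor kinase probes came from the study's list of genes higher in HT, and all 4 were higher here, which that choice fixes. AT2G37050 (A_46_P333205) was well above background on all 9 HT arrays and on no HS array, and was at least 12-fold higher in HT at 15 °C and at least 10.7-fold higher at both 22 and 27 °C; a bound sets the HT mean against the lowest signal well above background in HS. From 15 to 27 °C only FLS2, the receptor of bacterial flagellin, was called in this list, with a fall of 0.63 (adjusted p = 0.00318). Over all probes 28.3% were called for that difference. Of 7 other receptor-like kinases and relay genes, 3 were higher and 2 lower in HT (median 0.37, against 0.046 over all probes), and 2 rose and 3 fell from 15 to 27 °C (median −0.22, against 0.004). Over all probes 20.9% were higher and 15.1% lower in HT, and 13.6% rose and 14.7% fell. This list too came from probes that the study had selected on these arrays. Of the lower calls in this list, that of AT4G08500 (A_46_P009426, −0.12, adjusted p = 0.0475), was lost under the 75th percentile shift and with normexp (−0.11 each, adjusted p = 0.121 and 0.0732). AT4G04960, a lectin receptor kinase (A_46_P372735), was well above background on 1 HS array and was at least 30.2-fold higher in HT at 22 °C and 24.5-fold at 27 °C; its fall from 15 to 27 °C, counted above, includes HS arrays below that limit. BSK2, a brassinosteroid signaling kinase, was the lowest in HT (−0.27, adjusted p = 0.00425), and AT4G08500, a MAP kinase kinase kinase gene, rose the most from 15 to 27 °C, by 0.45 (adjusted p = 2.95e-05).

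The probes most like each of the 6 were sought among the 1979 probes of the study's tables with an Arabidopsis locus and signal above background on all arrays, by the root mean square distance of centred log2 values over the 18 arrays. These values describe likeness over arrays that share lines and temperatures. The nearest to the second ERECTA probe was another leucine-rich repeat kinase, AT4G34220 (A_46_P042486, distance 0.19 where the ERECTA probe's own SD over arrays was 0.52), followed by a Rab11 GTPase (AT1G16920, 0.21) and the ZW10 homologue (AT2G32900, 0.22). The first ERECTA probe had AT4G32295 (0.12), the protein kinase AT3G58690 (0.14) and the jasmonate receptor subunit COI1 (AT2G39940, 0.15) as neighbours. Its distance to the second ERECTA probe was 0.48, more than to the first IMK2 (0.19) or LRR-RLK (0.28) probe. The second IMK2 probe was nearest to a pyruvate kinase (AT5G56350, 0.18), AT4G22670 (0.20) and a chloroplast and mitochondrial FtsH protease (AT5G53170, 0.21). The first IMK2 probe was 0.09 from a casein kinase (AT5G57015), the MSH4 homologue (AT4G17380) and the cyclophilin ROC3 (AT2G16600), against its own SD of 0.14. LRR-RLK was nearest to AT5G48600, of the SMC family (0.13), AT5G03080 and AT2G23090 (0.14 each). PSKR2 was nearest to AT5G12950 and AT4G17010 (0.11 each) and to AT4G01090 (0.12).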

How the data were processed

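Total RNA of shoot meristems was labelled with Cy3 and hybridised to 1-colour Agilent arrays. The authors deposited the scanner output, whose processed intensity had been background-corrected by Feature Extraction 10.7.1.1 per the file headers. A table of log2 values deposited beside it was matched (r at least 0.9995 per array) by taking log2 of that intensity, subtracting the array's 75th percentile and then the probe's median. Intensities have no counts behind them, so the number of arrays limits the precision.

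Averaging the spots of a probe, after control and outlier spots were removed, gave 43603 probes, 165 without a value on some array. Log2 intensities were quantile-normalized, as the methods name RMA. One mean per group was fitted over all 18 arrays with limma 3.58.1 in R 4.3.3 on 12 residual degrees of freedom. Each comparison was adjusted over all probes by Benjamini-Hochberg, with no minimum fold and a threshold of 0.05. Probes of one locus were compared by exact permutation tests. The fit was tested on simulated data. Normalization, background correction, filter, blocks for replicate, slide and scan day, the methods' t-test and the omission of each array were tried as alternatives.

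The members and lists were chosen with earlier results of these data known. Named besides the 6 probes were ERL2, EPF2, TPST and SBT1.1, the largest called change in each direction of each list, and the 3 nearest probes; BAM3 and AT2G36570 were added after their values were seen. The copies of the gene tables used here are shortened.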

Additional observations from a re-analysis of the deposited data

How the results depend on the processing

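Of 1470 alternative values for 84 differences of the 6 probes, 1308 kept their direction and side of the threshold. Why the others changed was not tested. Under the 75th percentile shift, and in the authors' values, the first ERECTA probe gave −0.07 between lines averaged and −0.02 at 22 °C, the second IMK2 probe −0.01 between lines at 15 °C, and the first IMK2 probe 0.02 for 27 minus 22 °C in HS. That shift moved the median of all probes for 27 minus 15 °C from 0.004 to 0.1 (in HT from 0.011 to 0.116), and the split of calls from 5948 higher and 6391 lower to 10583 and 6476. With normexp, 27 minus 22 °C in HS was −0.01 for the first ERECTA, 0.03 for the first IMK2 and 0 for the LRR-RLK probe, and the first IMK2 probe's line difference was −0.07 (adjusted p = 0.148). With slide as a block, the second IMK2 probe was called for 27 minus 22 °C (−0.36, adjusted p = 0.0188), and the rises of the first ERECTA (0.39, 0.0517) and first IMK2 (0.19, 0.0712) probes were lost, as were 22 minus 15 °C for PSKR2 in HT (−0.34, 0.0516) and LRR-RLK in HS (0.54, 0.0534). The scan day block lost the second IMK2 probe's fall in HT (−0.58, adjusted p = 0.0741) and the LRR-RLK rise from 15 to 22 °C in HS (0.49, 0.0694).

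Replicate numbers were not taken as pairs in the main fit. Over 45 same-numbered pairs the correlation of deviations ran from −0.0444 to 0.193, and 17 exceeded 0.1. Differently numbered pairs ran from −0.19 to 0.126. Most same-numbered correlations were positive, so arrays of the same number shared some deviation that the main fit does not use. With the replicate block no call of the 6 probes was lost, and LRR-RLK was called between lines at 15 °C (−0.33, adjusted p = 0.0377) and for 22 minus 15 °C in HT (0.41, 0.0241), as was the second IMK2 probe for 27 minus 15 °C in HS (−0.63, 0.0174). Probes called for 27 minus 22 °C averaged over lines went from 3114 to 4801 with the replicate block and 5073 with the slide block. In HT alone they went from 827 to 1423 and 1691, and in HS from 965 to 1594 and 1879. For 22 minus 15 °C in HS the replicate block gave 4145 calls in place of 2724.

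For 27 minus 15 °C in HT, 7900 calls became 12791 under the 75th percentile shift and 3809 with the methods' t-test after Benjamini-Hochberg adjustment. The tests of line by temperature went from 15 and 165 calls to 2 and 101 under that shift, and to 54 and 273 with the slide block. Fitting only the arrays compared left 1922 of 4452 calls for 22 minus 15 °C in HT and 595 of 2724 in HS by count, 3494 against 6968 for 27 minus 15 °C in HS, and 9 against 827 and 12 against 965 for 27 minus 22 °C in HT and HS. The methods' t-test after adjustment gave 5851, 5085 and 4945 line calls at 15, 22 and 27 °C against 9224, 8873 and 8594 in limma, 626 and 67 for 22 minus 15 °C in HT and HS, 1287 for 27 minus 15 °C in HS, and 0 in both lines for 27 minus 22 °C, where its unadjusted p fell below 0.05 for 5022 and 4125 probes. Of calls of the 6 probes, fitting only the arrays compared lost 10 and the adjusted t-test 13. The first of these lost between lines the second ERECTA and LRR-RLK probes at 22 °C and PSKR2 at 27 °C, and the second also PSKR2 at 15 °C and the second ERECTA probe at 27 °C. Over temperature in HT, both lost PSKR2 from 15 to 22 °C and the first ERECTA and second IMK2 probes from 15 to 27 °C, the t-test LRR-RLK too. In HS both lost PSKR2 and LRR-RLK from 15 °C to 22 and to 27 °C. Unadjusted, the t-test gave 8978 and 6030 for 22 minus 15 °C.

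Leaving out 1 array at a time, the first IMK2 probe ranged from −0.17 to −0.12 between lines and from 0.17 to 0.22 for 27 minus 15 °C. Averaged line differences ranged from 0 to 0.08 (first ERECTA) and −0.13 to 0.03 (second IMK2), and 27 minus 22 °C from 0 to 0.12 (first ERECTA), −0.13 to 0.1 (second ERECTA) and −0.02 to 0.05 (first IMK2). Differences uncalled in every such fit also changed sign. Between lines these were the second IMK2 probe at 15 °C (−0.01 to 0.15) and 27 °C (−0.27 to 0.23) and the first ERECTA probe at 22 °C (0 to 0.18). For 27 minus 22 °C in HT they were the first ERECTA (−0.03 to 0.22), second ERECTA (−0.05 to 0.19) and first IMK2 (−0.03 to 0.1) probes. In HS they were the first ERECTA (−0.09 to 0.1), second ERECTA (−0.33 to 0.13), first IMK2 (−0.08 to 0.06), LRR-RLK (−0.13 to 0.1) and PSKR2 (−0.1 to 0.07) probes. The second ERECTA probe in HS ranged from −0.16 to 0.31 for 22 minus 15 °C and −0.15 to 0.18 for 27 minus 15 °C. For line by temperature, 22 against 15 °C, the ranges were −0.02 to 0.44 (second ERECTA), −0.07 to 0.08 (first IMK2) and −0.26 to 0.01 (LRR-RLK), and for 27 against 15 °C −0.34 to 0.17 (second IMK2) and −0.1 to 0.07 (PSKR2).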
